A study of Homo sapiens with 12 samples.

Results

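The clustered protocadherin genes form 3 neighbouring clusters, alpha, beta and gamma, on chromosome 5 (hg38). Members were all genes named PCDHA, PCDHB or PCDHG with a member number or letter. The peaks were all regions of either list that overlap positions 140780000 to 141520000. This gave 53 protein-coding members, of which 15 are alpha, 16 beta and 22 gamma, plus 6 pseudogenes. Within the window lie 173 of the 112068 peaks in all: 67 of 46898 in wild-type (WT) cells and 106 of 65170 in knockout (KO) cells.

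The peaks mark trimethylation of lysine 9 on histone H3 (H3K9me3), a mark of silenced chromatin, mapped by chromatin immunoprecipitation and sequencing (ChIP-seq). The cells were 293T, a human embryonic kidney line that carries the SV40 large T antigen, either wild type or with a knockout of SMARCA3, the gene now called HLTF. The labels name no other allele or treatment and do not say whether the KO cells are 1 clone. They list 3 ChIP and 3 input libraries per genotype, called biological triplicates, but the deposited results used here are 1 peak list per genotype. The lists therefore give no spread between replicates, no p-value was computed between genotypes, and sequencing depth could not be read from them. The fold enrichment and q-value (the p-value of a peak adjusted for multiple testing) of each peak are the authors' values.

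Clustered protocadherins are cell-surface adhesion proteins that bind to copies of themselves on neighbouring cells. In neurons, each cell switches on its own mix of members, and this gives the cell a surface identity by which its branches avoid one another. Each alpha and gamma member has a variable exon with its own promoter, which is spliced to constant exons shared by its cluster, whereas a beta member is a single-exon gene with no constant exon. Most of the promoters share a conserved sequence element with a CGCT core, where the looping protein CTCF binds, and histone H3 lysine 9 methylation is one of the marks known from silent members. The kidney-derived line used here is not a neuronal model.

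A RefSeq table (GRCh38.p14) held promoter sequences for 47 of the 53 members. The letters CGCT were found on either strand of the 300 bases around the start in 46 of these 47 (97.9%), against 81.1% of all promoters in the table. They stood on the coding strand within the 100 bases before the start in 44 of the 47 (93.6%), against 35.3% of all. The window of 100 bases was chosen after the positions had been seen. By cluster, it held CGCT in 12 of 13 alpha, 13 of 14 beta and 19 of 20 gamma promoters. Those 44 promoters held 58 matches, as some had several. Over all matches, CGCT began at a median of 52 bases before the start (quartiles 39 and 64). The reverse complement, AGCG, was in the same 100 bases in 0 of 13 alpha, 1 of 14 beta and 11 of 20 gamma promoters, or 12 of the 47, against 35.8% of all. A match of letters is a description of the sequence and not a measured binding site.

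The sequences below show this shared stretch for members with a peak over the promoter, taken as the 250 bases before to the 50 bases after the start. Each is the plus strand, 5′ to 3′, of the 100 bases before the start, with CGCT in capitals. The beta member PCDHB11 had a KO peak from 806 to 245 bases before its start, which just reaches this stretch, but its promoter sequence was not available. The alpha member PCDHA2 and the gamma members PCDHGA3, PCDHGA4, PCDHGB4, PCDHGA8 and PCDHGB6 had a KO peak over the promoter, and PCDHGA5 had one in both lists. Such a peak need not reach the printed bases or their CGCT. The PCDHGA4 peak ended 150 bases before the start and so reached no printed base. The CGCT of PCDHGA3, those of PCDHGB6 and the CGCT nearest the start of PCDHGB4 also lay outside every peak.
PCDHA2: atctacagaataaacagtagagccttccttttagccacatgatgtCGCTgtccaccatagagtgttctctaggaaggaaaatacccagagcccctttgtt
PCDHGA3: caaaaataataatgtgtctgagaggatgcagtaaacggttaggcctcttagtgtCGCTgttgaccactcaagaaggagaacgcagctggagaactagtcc
PCDHGA4: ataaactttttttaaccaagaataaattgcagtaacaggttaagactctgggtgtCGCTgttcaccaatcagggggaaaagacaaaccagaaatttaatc
PCDHGA5: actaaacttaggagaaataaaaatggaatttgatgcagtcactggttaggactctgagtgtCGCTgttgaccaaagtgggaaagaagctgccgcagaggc
PCDHGB4: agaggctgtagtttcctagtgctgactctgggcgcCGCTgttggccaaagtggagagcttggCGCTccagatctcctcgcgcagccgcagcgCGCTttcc
PCDHGA8: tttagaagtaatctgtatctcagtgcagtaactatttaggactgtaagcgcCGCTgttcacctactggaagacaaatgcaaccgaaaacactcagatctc
PCDHGB6: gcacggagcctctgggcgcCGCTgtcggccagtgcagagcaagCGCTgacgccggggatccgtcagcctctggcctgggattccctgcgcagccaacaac

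The first member of each cluster had no peak over its promoter in either list and is printed for comparison. All 3 hold CGCT as well, so the letters were present both with and without a peak over the promoter.
PCDHA1: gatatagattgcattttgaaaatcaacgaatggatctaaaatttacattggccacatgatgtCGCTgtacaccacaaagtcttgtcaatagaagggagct
PCDHB1: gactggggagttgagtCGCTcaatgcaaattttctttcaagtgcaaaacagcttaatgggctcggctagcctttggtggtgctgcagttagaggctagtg
PCDHGA1: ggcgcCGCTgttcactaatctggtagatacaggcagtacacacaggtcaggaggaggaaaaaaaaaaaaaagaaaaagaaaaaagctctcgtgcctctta

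Across the window, peaks covered 39616 bases in WT (5.35%) and 82268 in KO (11.1%). The KO list held 1.58 times as many peaks (95% interval 1.17 to 2.15) and 2.08 times as many peak bases. All intervals here are Wilson intervals for shares, or such an interval turned into a ratio of counts, and cover counting error only. The whole KO list was longer by 1.39 times in peaks (1.37 to 1.41) and 1.59 times in bases, so the window's interval in peaks includes the ratio of the whole lists. Elsewhere on chromosome 5 the lists held 2451 and 3523 peaks, a ratio of 1.44 (1.37 to 1.51). Among 3759 windows of the same length with any peak, 1.20% held at least 67 WT peaks and 1.44% at least 106 KO peaks, and 2.10% and 1.44% held at least as many WT and KO peak bases. As large an excess of peak bases in KO was seen in 1.38% of them, and 74.5% held more KO than WT peaks.

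The peaks were unevenly spread between the clusters, as the map of all window peaks shows. Of the 42652 bases by which KO exceeded WT, 20101 lay between the beta and gamma clusters, 16091 in gamma, 5004 in beta and 714 in alpha. The 3 clusters without the stretches between them held 26 WT and 62 KO peaks, a ratio of 2.38 (1.51 to 3.75). Gamma gave 16 and 43 of these peaks, and its ratio depended on how the lists were read, as given below.

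**Figure D1:**
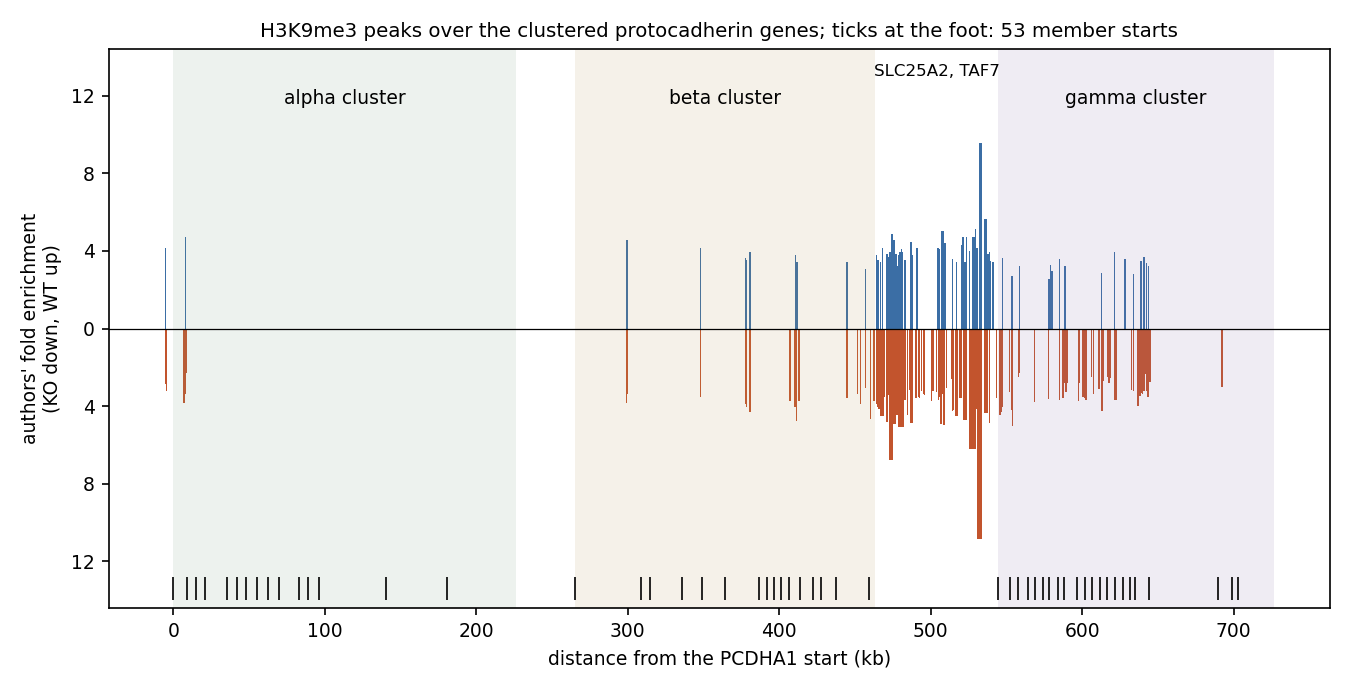
Position of each peak in kb from the PCDHA1 start (horizontal axis) and its fold enrichment from the authors (vertical axis), with 67 WT peaks drawn upward and 106 KO peaks downward. Shaded stretches are the 3 clusters, ticks at the foot are the 53 member starts, and bars are drawn at least 0.9 kb wide; the alpha cluster is almost empty and the tallest bars stand between beta and gamma.

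The alpha cluster (140786140 to 141012347) was nearly free of peaks in both lists. It held 1 WT peak of 537 bases and 3 KO peaks of 1251 bases in all, or 0.237% and 0.553% of its length. All of them lay around PCDHA2, from 2110 bases before to 154 bases after its start. The WT peak (140794004 to 140794540) had a fold of 4.72. The KO peaks had folds of 3.82 (140792742 to 140793398), 3.36 (140794036 to 140794326, which overlaps the WT peak) and 2.31 (140794704 to 140795006, which lies over the start). Counts of 1 and 3 give a ratio of 3.0 with an interval from 0.430 to 20.9, so a difference was not detectable at these counts.

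From PCDHA3 to the end of the cluster, a stretch of 211 kb with the constant exons, neither list held a peak. The longest peak-free stretch of the window began at PCDHA2 and reached into the beta cluster, over 290.9 kb in WT and 290.3 kb in KO. The 39.0 kb between alpha and beta held none. Thus 14 of the 15 alpha members had no peak assigned to them in either genotype.

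The beta cluster (141051374 to 141249365), made of single-exon genes, held 9 WT peaks and 16 KO peaks. These covered 1.71% and 4.24% of its length, and the ratio of peak numbers was 1.78 (0.802 to 3.94), which includes that of the whole lists. Every WT peak of the cluster, 9 of 9, overlapped a KO peak, and 10 of 16 KO peaks overlapped a WT peak. Over both whole lists, 79.9% of WT and 50.6% of KO peaks met a peak of the opposite genotype over 1 base or more. Median folds were 3.61 among the WT peaks (3.06 to 4.54) and 3.78 among the KO peaks (3.08 to 4.75).

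Of the beta members, 3 had an assigned peak in each list, and they were PCDHB5, PCDHB11 and PCDHB15 in both. PCDHB5 had 1 peak before its start in each list, 463 bases wide in WT (fold 4.16) and 685 in KO (fold 3.51). PCDHB11 had 1 WT peak (141197585 to 141198095, fold 3.45) and 2 KO peaks. The wider KO peak (141197130 to 141198109, fold 4.75) overlaps the WT peak, and the other (141198821 to 141199382, fold 3.74) reaches the promoter. PCDHB15, the last member, had 1 WT and 3 KO peaks. Its WT peak (141249828 to 141250521, fold 3.77) lies past the end of the gene. A KO peak covered much the same bases (fold 3.90), and the others (141245819 to 141246677, fold 4.67, and 141248538 to 141248859, fold 3.74) met no WT peak. PCDHB10 had no assigned peak, but a KO peak lay from 815 to 1093 bases after its start (fold 3.74). The pseudogene PCDHB19P was assigned 2 KO peaks and no WT peak, although a WT peak (141242953 to 141243235, fold 3.06) that the authors assigned to another transcript lies within it.

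The densest stretch was the 81.1 kb between beta and gamma (141249366 to 141330513), which holds no protein-coding protocadherin. It contains SLC25A2, a mitochondrial carrier of ornithine, and TAF7, a subunit of the general transcription factor TFIID. Peaks covered 35.4% of it in WT and 60.2% in KO. The number of peaks was nearly the same, 40 and 42 (ratio 1.05, 0.683 to 1.61), and their mean width was 719 bases in WT and 1163 in KO. The strongest peak of each list in the window lay at TAF7 (141318490 to 141320784). It ran from 141317702 to 141320170 in WT (fold 9.54, q = 8.5e-45) and from 141316739 to 141320202 in KO (fold 10.9, q = 6.2e-70). Over SLC25A2 (141302635 to 141304049) the WT peak was 414 bases wide (fold 3.45) and the KO peak 1644 bases (fold 4.53).

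**Figure D2:**
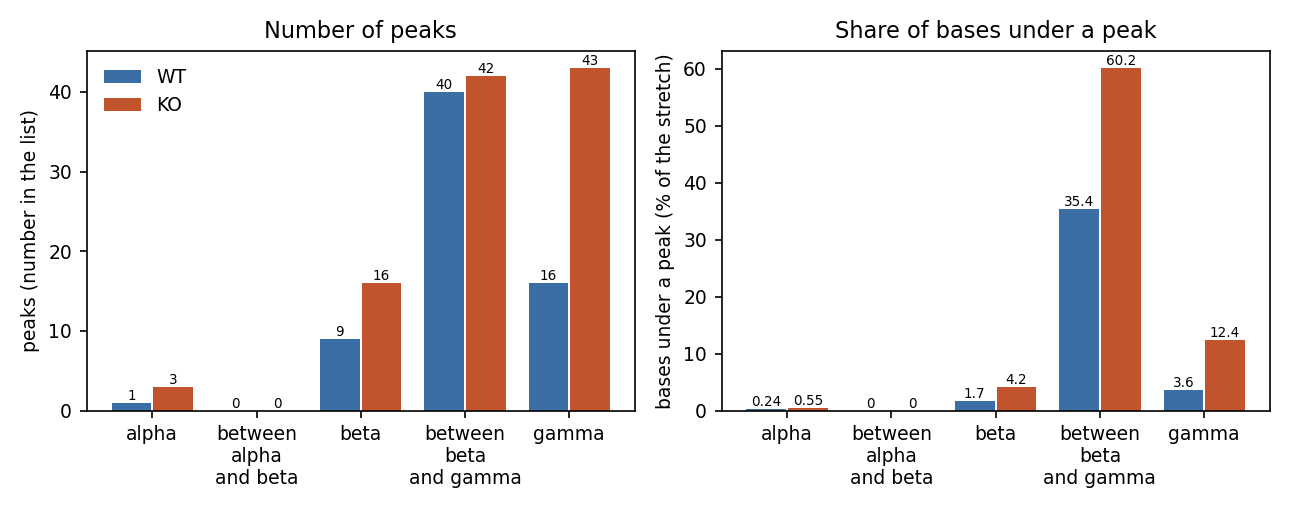
Number of peaks (left) and percentage of bases under a peak (right) in each stretch of the window, 1 bar per peak list and no error bars because each genotype has 1 list. Between beta and gamma the peak numbers are close, 40 and 42, while the covered share is 35.4% in WT and 60.2% in KO; in gamma both differ, with 16 and 43 peaks.

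The gamma cluster (141330514 to 141512975) held 16 WT and 43 KO peaks. They covered 6572 bases in WT (3.6%) and 22663 in KO (12.4%), which is 2.69 times as many peaks (1.53 to 4.73) and 3.45 times as many bases. The interval in peaks lies above the ratio of the whole lists, 1.39, and above that of the rest of chromosome 5, 1.44. That ratio depended on how the lists were read. With the KO list shortened to as many peaks as the WT list, keeping those of highest fold, the counts were 22 and 16 (ratio 1.38). That cut takes out low-fold KO peaks only, while WT gamma peaks down to a fold of 2.54 stay. Both whole lists then hold 46898 peaks, so the 1.39 above is not the ratio to set beside it. With peaks within 1 kb of one another merged, the counts were 18 and 13 (ratio 1.38). The ratio of the whole lists after merging is not given here. Among peaks with a fold of at least 3.69, the median of both lists, there were 12 KO peaks and 1 WT peak.

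Most gamma WT peaks recurred in KO, while most gamma KO peaks had no WT counterpart. Of the WT peaks, 13 of 16 (81.3%) overlapped a KO peak, close to the 79.9% of the whole list. Of the KO peaks, 13 of 43 (30.2%, 18.6 to 45.1) overlapped a WT peak, against 50.6% of the whole KO list. Folds were moderate, from 2.54 to 3.95 in WT (median 3.25) and from 2.30 to 5.03 in KO (median 3.34). The median over all peaks was 3.77 in WT and 3.59 in KO.

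The gamma members fall into A, B and C types, whose variable exons differ in sequence. The part with the A and B members held 16 WT and 42 KO peaks. The C members and the constant exons, the last 37.0 kb of the cluster, held no WT peak and 1 KO peak (141478046 to 141478670, fold 3.03). That peak began 2080 bases after the PCDHGC3 start and was assigned by the authors to RN7SL68P, a pseudogene of a small cytoplasmic RNA. Assigned peaks were present for 8 of 12 A members in WT and 11 of 12 in KO, for 3 and 5 of 7 B members, and for none of the 3 C members in either list.

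Individual members differed in where the KO peaks lay. PCDHGA2 had 1 WT peak, from 804 to 1175 bases after its start (fold 2.68). In KO it had 3, from 705 to 420 bases before the start (fold 3.28), from 68 to 1027 bases after it (fold 4.18) and from 1265 to 1817 bases after it (fold 5.03, the highest of the cluster). PCDHGA1, PCDHGA6 and PCDHGB5 likewise had a WT peak and more KO peaks than WT peaks. PCDHGA6 had 1 WT peak (141374456 to 141375013, fold 3.23) and 4 KO peaks with folds of 2.79 to 3.58. The widest of these (141374011 to 141375285) spans the WT peak. PCDHGB5 had a WT peak of 479 bases (fold 2.84), and the KO peak over it was 1046 bases wide (fold 4.25).

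Other A and B members had assigned peaks in KO alone. PCDHGA4, PCDHGA7, PCDHGB4, PCDHGA8, PCDHGA9 and PCDHGB7 had no assigned WT peak and 1, 2, 3, 2, 3 and 1 assigned KO peaks. A WT peak assigned to a neighbour still lay from 2105 to 2548 bases after the PCDHGB7 start (fold 2.79), and another lay between the PCDHGA9 start and the next one. At PCDHGB4 the 3 KO peaks lay from 1063 to 720 and from 311 to 37 bases before the start (folds 3.51 and 3.59) and from 774 to 1140 bases after it (fold 3.66). At PCDHGA8 they lay from 280 to 3 bases before (fold 2.49) and from 611 to 1282 bases after the start (fold 3.38). At PCDHGA9 the KO peaks lay from 104 to 594, 811 to 1193 and 1673 to 1943 bases after the start, with folds of 2.47, 2.79 and 2.56. The widest KO peak of the cluster, 1385 bases (fold 3.98), lay from 1321 to 2705 bases after the start of PCDHGA11. PCDHGA11 had assigned peaks in both lists. Its WT peak lay from 1269 to 826 bases before the start (fold 2.79), and a KO peak from 1160 to 606 bases before it (fold 3.21) overlapped that peak.

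At the remaining members with peaks in both lists, the assigned WT peaks overlapped a KO peak. All of these members but PCDHGB3 also had assigned KO peaks that met no WT peak. PCDHGA3 had a WT peak from 673 to 1279 bases after its start (fold 3.22), and a KO peak there from 648 to 943 (fold 2.30), with a further KO peak over the start (fold 2.51). PCDHGB3 had a WT peak from 721 to 1117 bases after its start (fold 3.58) and a KO peak from 752 to 1314 (fold 3.70). PCDHGB6 had a WT peak from 699 to 364 bases before its start, which has the highest fold of the WT gamma peaks (3.95), and a KO peak from 392 to 114 bases before it (fold 3.70). Further KO peaks lay over the PCDHGB6 start (fold 2.34) and from 807 to 1138 bases after it (fold 3.70). At PCDHGA12, the last A member, WT and KO peaks overlapped from 985 to 666 bases before the start, with folds of 3.22 and 3.51. A further KO peak lay from 333 to 643 bases after the PCDHGA12 start (fold 2.77).

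Exceptions went the other way. PCDHGA10 had a WT peak (141414249 to 141414673, fold 3.59) and no KO peak. PCDHGA5 had 3 WT peaks, with folds of 2.54, 3.28 and 2.96, and 1 KO peak (141363941 to 141364216, fold 3.63), which overlaps the WT peak at the start. PCDHGB1 and PCDHGB2 had no assigned peak in either list. Measured from each member's start to the next start, KO held more peak bases in 17 of 22 gamma members and fewer in PCDHGA5 (1003 and 55 bases) and PCDHGA10 (425 and 0 bases).

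**Figure D3:**
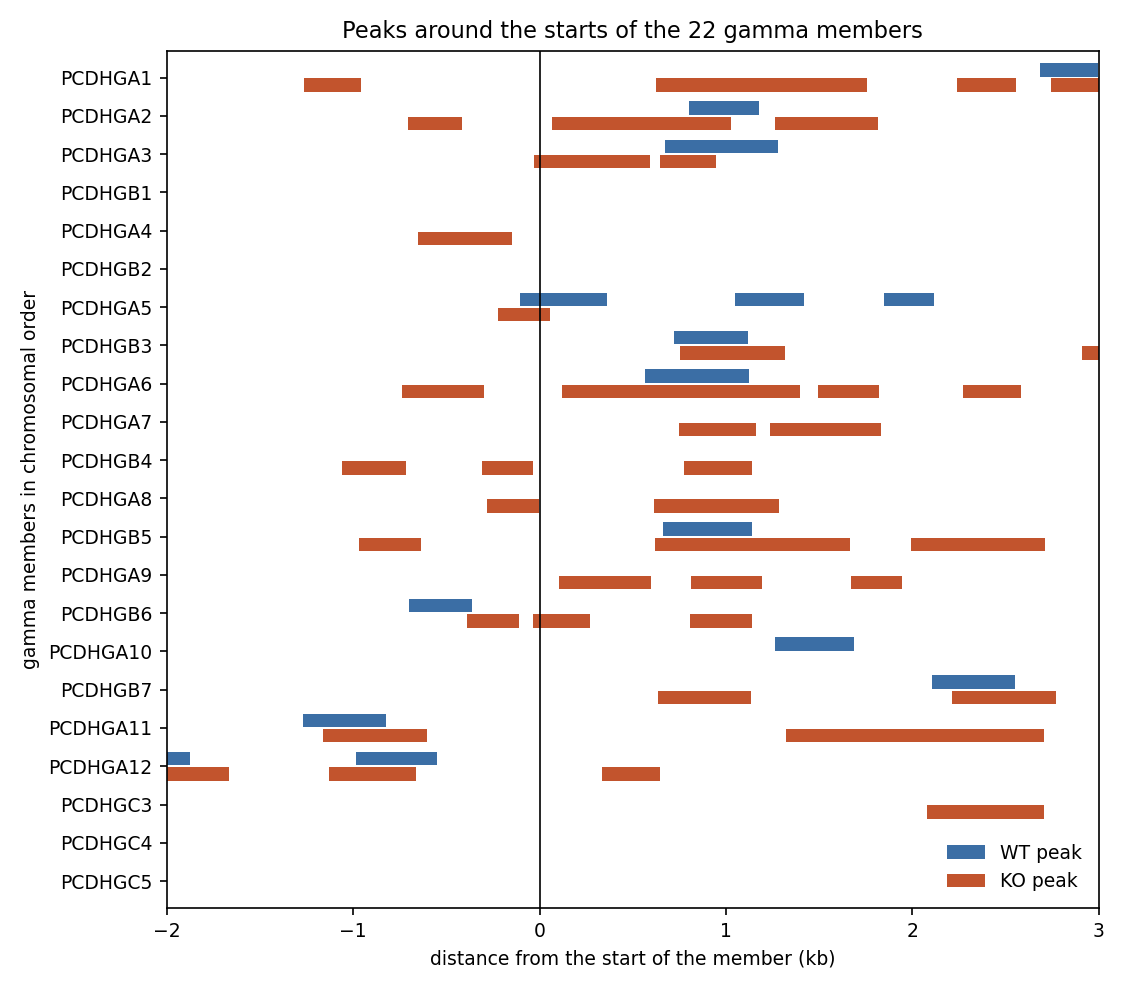
Each row is 1 of the 22 gamma members in chromosomal order, with WT peaks (upper bar) and KO peaks (lower bar) by distance in kb from the member's start; bars keep their true width within the plotted range. KO bars recur at about the same distance after the start in many A and B rows, while PCDHGB1, PCDHGB2, PCDHGC4 and PCDHGC5 have none.

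Within the A and B members, peaks were most frequent from 500 to 1499 bases after the starts, though all the other bins examined held some in each list. From 500 to 999 bases after the start, 5 of 19 members had a WT peak and 13 of 19 a KO peak, against 0.360% and 0.846% of the 15843 protein-coding genes with a promoter in the table. From 1000 to 1499 bases after it, the counts were 7 and 12 (0.663% and 1.22% of all genes). In the 500 bases that begin at the start, 1 member had a WT peak and 7 had a KO peak (0.107% and 0.423%). In the 500 bases before it, the counts were 2 and 8 (0.215% and 0.606%), and in the 500 bases before those, 3 and 8 (0.688% and 1.36%). No alpha member and at most 2 beta members had a peak at 500 to 1499 bases after the start in either list.

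**Figure D4:**
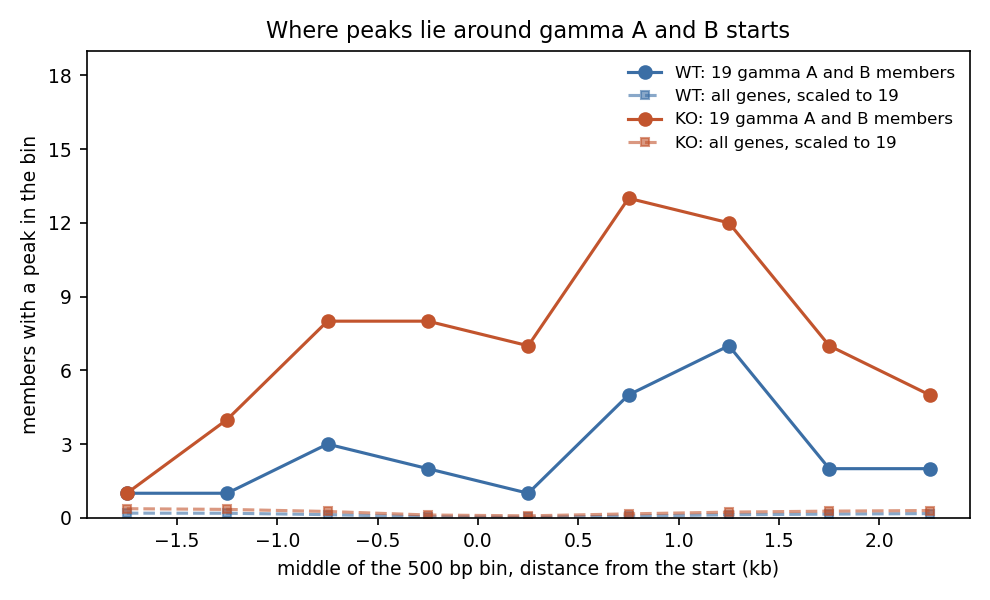
Number of the 19 gamma A and B members with a peak base in each bin of 500 bp (vertical axis) by distance of the bin's middle from the start in kb (horizontal axis). Dashed lines give the share of 15843 protein-coding genes, scaled to 19; KO reaches 13 members at 500 to 999 bp after the start, where WT has 5.

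The A and B members are closely spaced, and 71.2% of the bases from the first of them to PCDHGC3 lie within 3 kb of a member or pseudogene start. The part of this spacing in the positions of the peaks was not tested. All 16 WT and 43 KO gamma peaks were in the authors' promoter classes, which reach 3 kb from any transcript start, against 8.16% and 9.62% of all peaks. The exons of A and B members are also close in sequence to one another, so reads may align to several members. How such reads were counted is not given in the sources used here, and their part in the recurrent positions was not tested.

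By the authors' assignment, 15 of 53 members had a peak in WT (28.3%) and 20 in KO (37.7%), against 20.7% and 23.4% of 20037 protein-coding genes. Peaks were assigned in both genotypes for 14 of these members, for 6 only in the KO list and for 1 only in the WT list, which leaves 32 with none. Over the promoter itself, 1 member had a WT peak (PCDHGA5) and 8 had a KO peak, of which 6 were gamma members, against 0.107% and 0.353% of the 15843 genes with a promoter in the table. The others were PCDHA2 and PCDHB11. With a stricter reading, 4 members in WT and 11 in KO had a peak with a fold of at least 3.69. The share of all genes at that limit is not given, so these counts have no background to be read against. The limit lies below the median fold of all WT peaks (3.77) and above that of all KO peaks (3.59).

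Peaks present in both lists were mostly wider in KO, as elsewhere in the genome. Each WT peak was paired with the KO peak with which it shared most bases, and 50 of 62 pairs in the window (80.6%) were wider in KO, against 76.0% of all pairs. Several WT peaks can meet the same KO peak, so the 62 pairs hold 48 distinct KO peaks. Between beta and gamma, 33 of 38 were wider in KO, with median widths of 623 and 2066.5 bases over the pairs. These 38 pairs hold 24 distinct KO peaks, so wide KO peaks enter that median several times. Over all peaks of this stretch, each counted once, the median widths were 593 bases in WT and 665 in KO. In gamma 10 of 13 were wider (436 and 556 bases) and in beta 7 of 9 (387 and 613 bases).

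**Figure D5:**
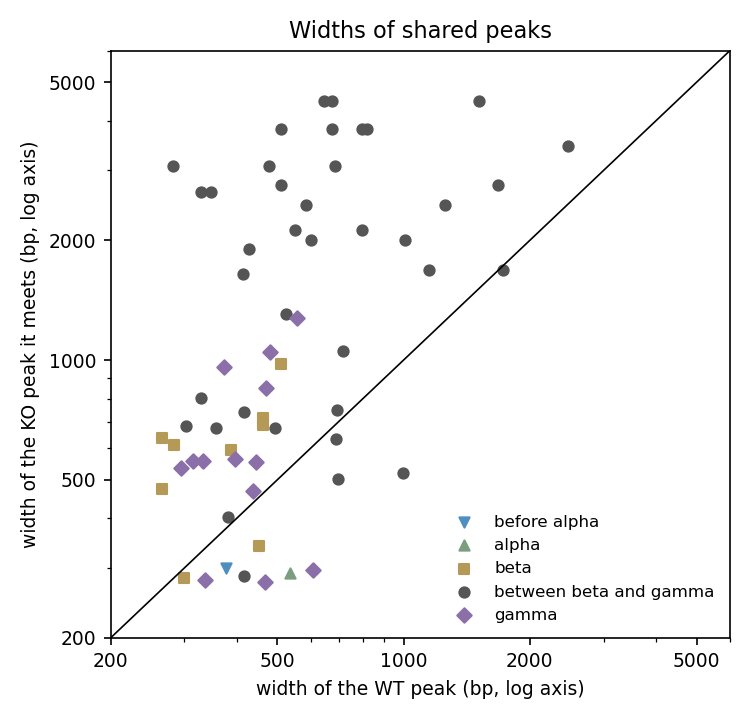
Width of each of the 62 WT peaks that meet a KO peak (horizontal log axis, bp) against the width of the KO peak (vertical log axis, bp), with the stretch of the window shown by marker; points above the line are wider in KO. Of the 62 pairs, 50 lie above the line, and the widest KO peaks belong to the stretch between beta and gamma.

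Of 12 non-clustered protocadherins, 3 had an assigned peak in WT and 4 in KO, led by PCDH9 with 114 and 136 peaks and PCDH15 with 16 and 25. Of 23 genes for proteins that act on the clusters or on this mark, 7 had a peak in WT and 9 in KO. Both lists are to be read against the 20.7% and 23.4% of all protein-coding genes. In that list 4 genes had more peaks in KO and 4 had fewer, while by peak bases 7 were higher in KO and 2 lower. SETDB1, which methylates lysine 9 of histone H3, had 0 and 3 peaks, and STAG2, a cohesin subunit, had 13 and 6.

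The window's edges do not cut through a run of peaks. The nearest peaks outside it on the lower side were 6.93 kb away in WT (fold 4.09) and 6.22 kb away in KO (fold 4.13). On the upper side they were 27.3 kb and 27.2 kb away (folds 4.03 and 3.64). Just inside, the lowest peaks had folds of 4.15 in WT and 2.87 in KO, and the uppermost 3.22 and 3.03.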

How the data were processed

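H3K9me3 ChIP-seq libraries of WT and SMARCA3 KO 293T cells, 3 ChIP and 3 input per genotype, were deposited as 1 peak list per genotype. The reads were processed with HISAT2 on hg38, per the submitters' processing notes. How peaks were called, whether inputs served as background and how replicates were pooled is not given in the sources used here, and the labels list total RNA as the molecule beside a ChIP protocol. Each deposited peak has a position, the authors' fold (a ratio), the authors' q-value and a gene; the column names do not define fold or q-value. With 1 list per genotype no test between genotypes was possible.

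Positions were counted from 1, and a peak belonged to the stretch that holds its midpoint. An overlap of 1 bp or more made peaks shared, counted on the 22 autosomes, X and Y. Gene bounds came from RefSeq GRCh38.p14, which held 6853 of the 9261 gene names of the lists, and member starts from the same table. Members and gene lists were chosen with earlier results of these data known. Named members were those with an assigned peak or a start within 3 kb of a peak, plus the first and last of each cluster and window genes under a peak. Scripts were tested on simulated peaks. Python 3.11.15, numpy 2.4.6, pandas 2.3.3, scipy 1.17.1 and matplotlib 3.10.9 were used.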

Additional observations from a re-analysis of the deposited data

How the results depend on the processing

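No paired analysis was possible because each genotype has 1 peak list without replicate columns, and leaving out a replicate was not possible for the same reason. Of 77 alternative values, 46 were counted as kept, 28 moved and 3 reversed. A ratio of peak numbers or a shared percentage was counted as kept inside the 95% counting interval of the reported value, and other values within 1.5 times of it. These intervals are wide, so alpha peaks were counted as kept at a ratio of 1 and window peaks at 1.17 with merged peaks. The 1.39 of the whole lists is for unmerged peaks and cannot be set beside that 1.17. Of 48 ratios of KO to WT, 41 stayed above 1, and the others reversed or were exactly 1. The settings re-read the same lists, and the whole KO list is the longer, so these ratios are not separate results. The 3 that reversed were peak numbers between beta and gamma, at 0.767 with a fold of at least 3.69, 0.90 with lists of equal length and 0.786 with neighbouring peaks merged.

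Lists of equal length held all 46898 WT peaks and the 46898 KO peaks of highest fold. With them, the ratio of peak numbers was 1.12 in the window and 1.38 in gamma, and that of gamma bases was 1.90. The shared percentages were 82.1 for WT and 58.7 for KO. With a fold of at least 3.69, gamma peaks had a ratio of 12 and gamma bases 23.9, alpha bases 1.22, the shared WT percentage was 78.4, and 4 WT and 11 KO members had a peak. At a fold of at least 5, the shared WT percentage was 50.0, and 0 WT members and 1 KO member had a peak. The share of all genes with a peak is not given for either fold limit or for the q-value limit that follows. With q-values at or below their median of 1.7e-07, window peaks had a ratio of 2.95 and window bases 3.36, alpha bases 1.22, beta peaks 5.50 and beta bases 6.43, the shared percentages were 75 and 22, and 2 WT members had a peak. Such a limit keeps more KO peaks at a like fold, since peaks of fold 3 to 3.5 had a median q-value of 2.1e-06 in KO and 4.0e-05 in WT over the whole lists. Gamma gave no ratio at that q-value because WT had no peak left, and alpha, beta and gamma gave none at a fold of 5. With merged peaks, alpha bases had a ratio of 4.22, gamma peaks 1.38, and the shared KO percentage was 64.3. The shared percentages were 34.3 for WT and 21.7 for KO where the overlap had to reach 50% of both peaks. Where peaks within 1 kb counted, the shared KO percentage was 72.6. The causes were not tested. The promoter window of 100 bases was chosen after seeing the data. Depth per library, the spread between cultures and the share of reads that fit several members are unknown, so no ratio here has an error beyond counting.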

Other observations

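The promoters of the members were poor in CG dinucleotides, with a median of 7 per 300 bases in alpha, 7.5 in beta and 7 in gamma, against 22 over all promoters in the table. The letters GCGGGG were in 4 of the 47 member promoters (8.51%), against 53.8% of all, and TATAAA in 6 (12.8%), against 9.63%.

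Folds on an evenly spaced grid, with a fitted offset, made up 56.4% of all WT peaks and 52.1% of all KO peaks. The step of the grid was 0.0788 for WT and 0.0772 for KO, with a tolerance of 1.5e-05. In gamma 2 of 16 WT and 8 of 43 KO peaks had such a fold. In beta the counts were 7 of 9 and 15 of 16, and between beta and gamma 29 of 40 and 26 of 42.

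ZNF274, a zinc finger protein that recruits SETDB1 to zinc finger gene clusters, had 17 peaks in WT and 12 in KO, and these covered 14556 and 29888 bases.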
